A study of Mus musculus with 24 samples.

Results

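The haemoglobin and erythroid genes described here are 7 named genes: the α-globin genes Hba-a1 and Hba-a2, the β-globin genes Hbb-bs and Hbb-bt, and Alas2, Bpgm and Slc4a1. They are 7 of the 30699 genes listed in at least 1 of the 4 deposited tables. They were chosen by their values in white fat with antimiR-452 and with scramblemiR, after erythroid genes had been seen to be lower with antimiR-452, so those values are given as a description with no test. C57BL/6 mice were given 2 injections under the skin, at 25 mg/kg, of an oligonucleotide with locked nucleic acids. It was antimiR-224, directed at miR-224, antimiR-452, directed at miR-452, or a scrambled sequence called scramblemiR. RNA was made from white fat (WAT, white adipose tissue) and brown fat (BAT), which gives 6 groups of 4 libraries: WAT antimiR-224, WAT antimiR-452, WAT scramblemiR, BAT antimiR-224, BAT antimiR-452 and BAT scramblemiR. All 6 groups share the strain and the injections, and the labels give neither the age or sex of the mice nor the fat depot. Whether the libraries of a group are from different mice is not said in the labels, so p-values measure only the spread between libraries, which may be technical.

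Haemoglobin carries oxygen in red blood cells and is built from α-globin and β-globin chains, each holding a haem group. Erythroid precursors and the youngest circulating red cells, the reticulocytes, still hold globin mRNA, while mature red cells of mammals have no nucleus and make no new mRNA. Adipose tissue is rich in blood vessels, so RNA from a whole piece of fat can contain mRNA of the blood in it. In such bulk RNA, fewer cells of a type and less RNA per cell cannot be told apart.

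The sequences that bear on the treatments are those of the inhibited microRNAs, taken from RefSeq on GRCm38.p6. They are printed 5′ to 3′ with the seed, bases 2 to 8, in capitals.
mmu-miR-224-5p: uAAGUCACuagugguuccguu
mmu-miR-452-5p: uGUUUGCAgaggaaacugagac
Both lie on the minus strand of chromosome X, at chrX:72261085-72261105 for mmu-miR-224-5p and at chrX:72262271-72262292 for mmu-miR-452-5p, and their seeds differ. The reverse complement of the miR-224 seed, GUGACUU, and that of the miR-452 seed, UGCAAAC, were searched in the annotated 3′ untranslated regions of all coding genes (GENCODE M21). Of 20997 genes, 13.6% held the miR-224 site and 10.3% the miR-452 site. Of the 7 erythroid genes, 0 held either site. These regions are between 74 and 147 bases long in the 4 globin genes and Alas2, and 1164 bases in Bpgm and 1463 bases in Slc4a1. A lack of a match says only that these letters are not in these annotated regions.

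The promoters of 4 of the genes are shown because most of the genes varied together across libraries and Bpgm varied less. Whether promoter sequence has any part in that variation was not tested. Promoter windows of 250 bases before to 50 bases after the annotated start were taken from RefSeq on GRCm38.p6, which held 6 of the 7 genes. Slc4a1 was not among them. Capitals mark matches to 4 motifs on either strand, with overlapping or adjoining matches merged. Known from erythroid genes are GATAA and CACCC. The general ones are CCAAT and TATAA.
Hba-a1 (chr11:32283422-32283721, plus strand): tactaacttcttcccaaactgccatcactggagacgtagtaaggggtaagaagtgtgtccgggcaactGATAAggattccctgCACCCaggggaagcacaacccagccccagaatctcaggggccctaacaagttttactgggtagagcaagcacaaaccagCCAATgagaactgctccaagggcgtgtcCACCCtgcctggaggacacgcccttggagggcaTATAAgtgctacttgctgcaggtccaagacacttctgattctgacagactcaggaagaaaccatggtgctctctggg
Hbb-bs (chr7:103827879-103828178, minus strand): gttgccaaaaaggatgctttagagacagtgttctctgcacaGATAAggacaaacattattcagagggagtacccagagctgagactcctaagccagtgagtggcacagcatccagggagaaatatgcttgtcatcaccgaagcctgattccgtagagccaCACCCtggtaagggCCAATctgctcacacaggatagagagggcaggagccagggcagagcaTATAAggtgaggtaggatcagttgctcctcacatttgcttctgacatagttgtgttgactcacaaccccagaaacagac
Alas2 (chrX:150547167-150547466, plus strand): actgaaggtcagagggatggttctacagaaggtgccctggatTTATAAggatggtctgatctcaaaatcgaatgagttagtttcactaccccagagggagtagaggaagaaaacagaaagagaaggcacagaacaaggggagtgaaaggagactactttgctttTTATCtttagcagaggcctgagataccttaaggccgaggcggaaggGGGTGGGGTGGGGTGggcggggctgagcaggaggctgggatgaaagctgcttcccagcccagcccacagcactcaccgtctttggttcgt
Bpgm (chr6:34476106-34476405, plus strand): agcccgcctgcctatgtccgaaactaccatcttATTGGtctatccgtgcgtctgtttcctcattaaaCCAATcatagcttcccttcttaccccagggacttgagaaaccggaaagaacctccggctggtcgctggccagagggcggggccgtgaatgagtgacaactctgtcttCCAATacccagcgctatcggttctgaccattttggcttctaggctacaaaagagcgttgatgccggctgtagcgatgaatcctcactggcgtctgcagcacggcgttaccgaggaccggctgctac
GATAA is the core of the sequence bound by GATA factors, and CACCC of that bound by erythroid Krüppel-like factors. All 4 globin windows, Hba-a2 and Hbb-bt included, held all 4 motifs, as did 1.51% of the 32851 promoter windows in the table. Alas2 held all but CCAAT. Bpgm held CCAAT, at 3 places, and none of the other 3 motifs. Singly, GATAA occurred in 25.4% of all windows and CACCC in 57.5%. CCAAT occurred in 37.4% and TATAA in 24.9%, and a match does not show binding. On GRCm38 (GENCODE M21), Hba-a1 (chr11:32283511-32284465) and Hba-a2 (chr11:32296489-32297298) both lie on the plus strand of chromosome 11. Hbb-bs (chr7:103826534-103828096) and Hbb-bt (chr7:103812524-103813996) do so on the minus strand of chromosome 7. Slc4a1 is also on chromosome 11 (chr11:102348824-102366203, minus strand), Alas2 on chromosome X (chrX:150547375-150570638, plus strand) and Bpgm on chromosome 6 (chr6:34476207-34505613, plus strand). The windows of Hba-a1 and Hba-a2 share an unbroken run of 297 bases, while the longest run shared by those of Hbb-bs and Hbb-bt is 14 bases.

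The values are normalized counts, that is reads per gene divided by the size factor of the library. The authors deposited 1 mean per group, and reads of single libraries were recovered from the digits of those means where a unique solution existed. That was so for all 7 genes in both scramblemiR groups, 5 genes in WAT antimiR-452, 4 in BAT antimiR-452, and 3 genes (Alas2, Bpgm and Slc4a1) in each antimiR-224 group. For the rest only the authors' group mean is given. Libraries are numbered by descending size factor within a group, since recovered reads could not be tied to a sample title. Control libraries held 22175430 to 27935908 reads in genes in WAT and 16960694 to 20255777 reads in BAT. The adipocyte gene Adipoq averaged 77809 in WAT and 13516 in BAT scramblemiR libraries. Ucp1, the uncoupling protein of brown fat, averaged 49.8 in WAT and 87305 in BAT scramblemiR libraries, so the tissue labels matched their markers.

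Several libraries stood apart from the others of their group by markers of other cells, and the results these libraries touch are given with their values. In BAT scramblemiR, the summed normalized count of 8 skeletal muscle markers was 653079 and 742478 in libraries 1 and 2, and 897 and 1094 in libraries 3 and 4. In WAT, 7 ciliated epithelium markers summed to 62.2 to 5131 in antimiR-452 libraries, 172 to 6026 in antimiR-224 libraries and 56.7 to 2616 in scramblemiR libraries, and all 8 listed genes had a higher deposited mean with either inhibitor. Sperm lineage markers (8 of 8 measured) reached 25203 in WAT scramblemiR library 2, against 15.8 to 68.4 in the other 3 libraries of that group. They summed to 306 to 7309 in WAT antimiR-224 libraries and to 6.66 to 639 in WAT antimiR-452 libraries. In WAT antimiR-452, 7 skeletal muscle markers summed to 9400 in library 3 and to 228, 344 and 423 in libraries 1, 2 and 4. The part of these cells in the erythroid values was not tested.

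In WAT with antimiR-452, the contrast that chose the genes, all 7 had a lower group mean than with scramblemiR. The globins, the oxygen carriers themselves, had nearly the same ratio. In the authors' deposited table, Hbb-bs averaged 3074 with antimiR-452 and 21702 with scramblemiR, a log2 ratio of -2.82. Hba-a1, the α-chain gene with more reads, averaged 1412 with antimiR-452 and 9579 with scramblemiR in the same deposited table (log2 ratio -2.76). The deposited log2 ratios of the 4 globins lay between -2.82 and -2.72, so the α and β chains were lower to about the same degree.

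Hba-a2 had 1419, 442, 862 and 1271 normalized counts in the 4 WAT antimiR-452 libraries, against 9621, 10145, 2205 and 4258 in the 4 WAT scramblemiR libraries. The highest antimiR-452 library stayed below the lowest scramblemiR library, and scramblemiR libraries 1 and 2 were the high ones. Hbb-bt, an adult β-globin gene beside Hbb-bs, had 800, 325, 505 and 727 in WAT antimiR-452 libraries, against 6117, 5994, 1305 and 2700 in WAT scramblemiR libraries. It averaged 589 ± 216 with antimiR-452 and 4029 ± 2409 with scramblemiR (SD, n = 4 each). The groups did not overlap, and the order of the scramblemiR libraries was almost that of Hba-a2.

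Alas2 encodes the erythroid form of the enzyme that starts haem synthesis. It had 283, 39.9, 154 and 241 normalized counts in WAT antimiR-452 libraries, against 1874, 2003, 320 and 798 in WAT scramblemiR libraries. Again the groups did not overlap, although the highest antimiR-452 library and the lowest scramblemiR library lay close together. Slc4a1 encodes the chloride and bicarbonate exchanger of the red cell membrane. It had 32, 4.75, 5.28 and 13.3 in WAT antimiR-452 libraries, against 139, 145, 8.40 and 203 in WAT scramblemiR libraries. Here scramblemiR library 3 lay among the antimiR-452 libraries, while scramblemiR library 4, middling for the globins, was the highest.

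Bpgm encodes the enzyme that makes bisphosphoglycerate, which lowers the oxygen affinity of haemoglobin. It had 523, 464, 545 and 386 normalized counts in WAT antimiR-452 libraries, against 1116, 1175, 508 and 596 in WAT scramblemiR libraries. Its groups overlapped, and its deposited log2 ratio, -0.82, was the smallest of the 7, while that of Slc4a1, -3.16, was the largest. The groups can be set out library by library for 5 genes. Of these 5, 3 (Hba-a2, Hbb-bt and Alas2) had antimiR-452 libraries that were all below all scramblemiR libraries. Among the 15583 genes of this contrast with recovered reads and a mean of at least 10, 0.712% lay apart in that direction. The authors' deposited table had 0% of 29079 genes past an adjusted p of 0.05, and at an unadjusted p under 0.05 0.107% were lower and 2.31% higher with antimiR-452. Since this contrast chose the genes, nothing is read from these counts.

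**Figure D1:**
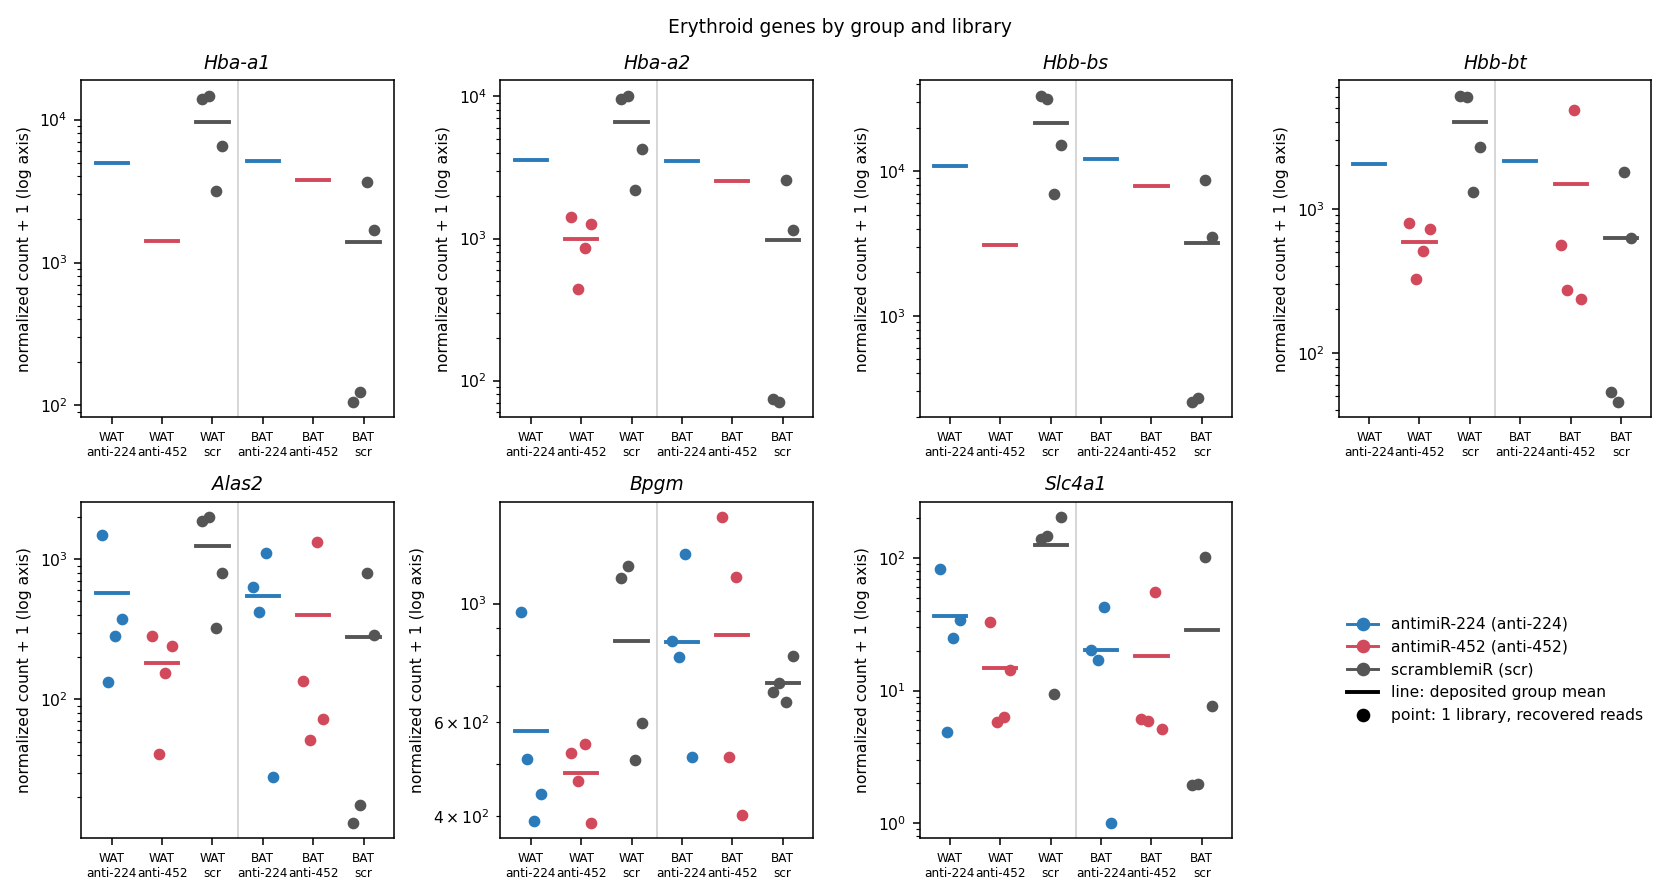
Normalized counts plus 1 (log axis) of the 7 erythroid genes in each library with recovered reads (points) and the deposited group means (lines), for antimiR-224 (anti-224), antimiR-452 (anti-452) and scramblemiR (scr) in WAT and BAT. WAT antimiR-452 points lie low, while BAT scramblemiR libraries 1 and 2 lie far below libraries 3 and 4 for all genes but Bpgm.

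The WAT antimiR-452 libraries did not carry the markers of other cells evenly. Libraries 1, 2 and 3 had ciliated epithelium sums of 3734, 5131 and 4021, and library 4 had 62.2, within the range of the scramblemiR libraries. In library 4, Hba-a2 at 1271, Hbb-bt at 727, Alas2 at 241 and Bpgm at 386 were below every WAT scramblemiR library. Slc4a1 at 13.3 was not, since WAT scramblemiR library 3 had 8.40. The part of ciliated cells in these values was not tested. Platelet and megakaryocyte markers, the blood-borne products of a related lineage, summed to 560 to 906 in WAT antimiR-452 libraries and 447 to 955 in WAT scramblemiR libraries. Most of each sum was a single gene, Pf4, at 396 to 767 with antimiR-452 and 332 to 647 with scramblemiR. Pf4 was the 1 gene with a higher mean with antimiR-452, and the other 11 of the 12 genes had a lower one, so the sums do not show the other genes. B cell markers (10 of 10 measured) had deposited means that summed to 10547 with antimiR-452 and 37387 with scramblemiR, and the single scramblemiR libraries had sums of 6316, 135318, 2670 and 5245. Of these 10 genes, however, 6 had a higher and 4 a lower deposited mean with antimiR-452. The 9 B cell genes recovered in all WAT libraries summed to 250, 2723, 165 and 153 with antimiR-452. With scramblemiR the same 9 summed to 440, 2460, 244 and 122. The part of these cells in the globin values was not tested.

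WAT with antimiR-224 was compared with the same 4 scramblemiR libraries, so it is not independent of the contrast that chose the genes. All 7 genes again had a lower mean, with deposited log2 ratios between -1.78 for Slc4a1 and -0.55 for Bpgm, and none passed the test. The deposited mean of Hbb-bs was 10796 with antimiR-224 and 21595 with scramblemiR, and that of Hba-a1 was 4982 with antimiR-224 and 9530 with scramblemiR. The median deposited log2 ratio was -0.97 over the 7 genes and -0.02 over 17898 genes with a mean of at least 10. The means of both globins with antimiR-224 thus lay between those with antimiR-452 and those with scramblemiR.

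Single libraries showed that the WAT antimiR-224 group was uneven. Alas2 had 1495.2, 131, 283 and 372 normalized counts in WAT antimiR-224 libraries, against 1874, 2003, 320 and 798 in WAT scramblemiR libraries. Library 1 was inside the upper range of the scramblemiR libraries, and libraries 2 and 3 were below them all. Slc4a1 had 82.0, 3.89, 24 and 33.3 with antimiR-224, and Bpgm had 962, 510, 391 and 439, both again highest in library 1. The groups overlapped for all 3 genes. Of 15541 genes with recovered reads and a mean of at least 10, 1.76% had every antimiR-224 library below every scramblemiR library. Ciliated epithelium markers summed to 5237, 6026, 874 and 172 in the 4 WAT antimiR-224 libraries, and their part in the erythroid values was not tested.

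With limma and Benjamini-Hochberg adjustment over 15541 genes, 0 genes passed an adjusted p of 0.05 (0% called), and 926 had an unadjusted p under 0.05. The authors' deposited table called 1 of 29128 genes (0.00343%), which was none of the 7. At an unadjusted deposited p under 0.05, 0 of the 7 genes passed, against 0.433% of all genes lower and 1.12% higher. In limma, Alas2 differed by -1.37 on the log2(count + 1) scale (SE 0.81, adjusted p = 0.84), Slc4a1 by -1.70 (SE 1.14, adjusted p = 0.84) and Bpgm by -0.55 (SE 0.36, adjusted p = 0.84). The unadjusted deposited p of the 7 genes lay between 0.0848 and 0.294.

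In BAT the group means went the other way. With antimiR-224, the deposited mean of Hbb-bs was 12098 with the inhibitor and 3151 with scramblemiR, a log2 ratio of 1.94, and that of Hba-a1 was 5128 with antimiR-224 and 1382 with scramblemiR. With antimiR-452, Hbb-bs averaged 7967 with the inhibitor and 3167 with scramblemiR in the deposited table (log2 ratio 1.33). Of the 7 genes, 6 had a higher mean with each inhibitor, and Slc4a1 had a lower one, with deposited log2 ratios of -0.52 for antimiR-224 and -0.69 for antimiR-452. Both comparisons use the same scramblemiR libraries. None of these differences passed a test.

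**Figure D2:**
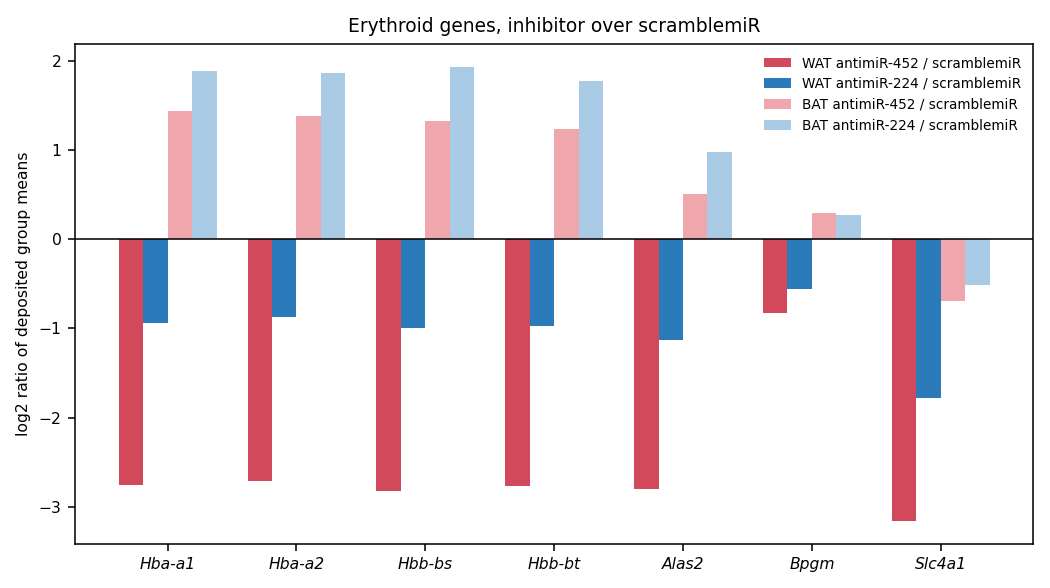
Log2 ratio of the deposited group means, inhibitor over scramblemiR, for each of the 7 erythroid genes in the 4 comparisons; bars start at 0 and carry no error because the table gives means only. Both WAT ratios are below 0 for all 7 genes, and both BAT ratios are above 0 for all but Slc4a1.

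The BAT scramblemiR libraries differed widely among themselves. Hbb-bs had 254, 271, 8634 and 3509 normalized counts in the 4 BAT scramblemiR libraries, a 34.0-fold range. Hba-a1 had 105, 122, 3648 and 1685, and Alas2 had 12.1, 16.5, 799 and 286. Libraries 1 and 2 had the least globin mRNA. The mean of libraries 3 and 4 was 23.1 times that of libraries 1 and 2 for Hbb-bs and 37.9 times for Alas2. Libraries 1 and 2 were the ones with the high skeletal muscle sums given above.

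Bpgm did not follow this split. It had 682, 707, 652 and 795 normalized counts in the BAT scramblemiR libraries, a coefficient of variation of 8.68%, against 133% for Alas2 in the same libraries. The mean of libraries 3 and 4 was 1.04 times that of libraries 1 and 2. Bpgm mRNA was thus at a like level in BAT scramblemiR libraries with little and with much globin mRNA. That did not extend to BAT antimiR-224, where Bpgm had 848, 794, 1235 and 514 normalized counts. Alas2 ranked those libraries in the same order.

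In BAT antimiR-224, Alas2 had 635, 418, 1113 and 26.8 normalized counts, against 12.1, 16.5, 799 and 286 in BAT scramblemiR libraries. Library 4 was low in each erythroid gene that could be recovered, since Slc4a1 had 0 reads there, which allows up to 3.50 normalized counts (3 reads), and Bpgm had 514, the lowest of its group. The groups overlapped for all 3 genes. Of 12122 genes with recovered reads and a mean of at least 10, 2.26% had every antimiR-224 library above every scramblemiR library. A further 1.36% had every one below. Skeletal muscle markers had deposited means that summed to 84426 with antimiR-224 and 347530 with scramblemiR, and all 8 were lower with antimiR-224. Their part in the erythroid values was not tested. Tmod1, which caps actin filaments in muscle and in red cells, had 1270 in library 1 and 31.8 to 91.1 in the other 3 antimiR-224 libraries, and Alas2 in library 1, at 635, was the second highest of the group.

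In BAT antimiR-452, 1 library decided the means. Hbb-bt had 555, 270, 4885 and 234 normalized counts in BAT antimiR-452 libraries, against 52.1, 44.7, 1791 and 624 in BAT scramblemiR libraries. Alas2 had 134, 50.5, 1330 and 71.3, and Slc4a1 had 5.14, 4.86, 54.2 and 4.14, all highest in library 3. Without library 3 the mean of Hbb-bt was 353 in place of 1486, and that of Alas2 was 85.2 in place of 396. Bpgm had 1452, 514, 1121 and 400, and was highest in library 1 instead. The groups overlapped for all 4 genes. Of 13003 genes with recovered reads and a mean of at least 10, 1.79% had every antimiR-452 library above every scramblemiR library. A further 1.56% had every one below. Skeletal muscle markers had deposited means that summed to 513597 with antimiR-452 and 349387 with scramblemiR, and their part in the erythroid values was not tested.

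In limma, 0 of 12122 genes passed in BAT antimiR-224 (0% called, 701 at an unadjusted p under 0.05) and 0 of 13003 in BAT antimiR-452 (0% called, 549 at an unadjusted p under 0.05). The authors' deposited tables also called 0 genes in either comparison (0%). At an unadjusted deposited p under 0.05, 0 of the 7 genes passed in either comparison. Over all genes, 0.477% were higher and 0.668% lower with antimiR-224, and 0.19% were higher and 0.309% lower with antimiR-452. With antimiR-224, Alas2 differed by 1.83 on the log2(count + 1) scale (SE 1.70, adjusted p = 0.77) and Bpgm by 0.20 (SE 0.24, adjusted p = 0.81). With antimiR-452, Hbb-bt differed by 1.5 (SE 1.40, adjusted p = 0.998, limma) and Alas2 by 0.92 (SE 1.53, adjusted p = 0.998, limma). Slc4a1, lower by the ratio of means, was higher by the mean of logs in both comparisons, at 0.58 with antimiR-224 and 0.44 with antimiR-452. With both muscle-rich scramblemiR libraries left out, Alas2 turned to -0.66 with antimiR-224 and to -1.58 with antimiR-452, Slc4a1 to -1.34 with antimiR-224 and to -1.48 with antimiR-452, and Hbb-bt to -0.72 with antimiR-452. Those 2 libraries had the least globin mRNA and were left out after the data were seen, so this turn follows from the choice. Other libraries mattered as well. Without library 3 of BAT antimiR-452 alone, Alas2 turned to -0.10 and Slc4a1 to -0.38 in that comparison. Without library 3 of BAT antimiR-224 alone, Slc4a1 turned to -0.075 there. With both muscle-rich libraries left out, Bpgm kept its sign, at 0.18 with antimiR-224 and 0.08 with antimiR-452, and no gene was called.

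Of the 3 genes that could be compared between tissues, Bpgm passed the test and was lower in WAT. In the antimiR-224 libraries, which took no part in choosing the genes, Bpgm had 675, 356, 282 and 325 normalized counts in WAT and 1239, 1045, 1750 and 702 in BAT, after scaling both tissues together. Every WAT library was below every BAT library, but the share of all genes set apart in this way was not counted. The difference, WAT minus BAT, was -1.54 on the log2(count + 1) scale (SE 0.33, adjusted p = 0.00405, limma over 13511 genes). In this comparison 46.6% of all genes were called, and 20.3% were called lower in WAT, so a call of this kind was common. The median gene was at 0.17 with this scaling. Upper quartile scaling moved it by -0.26 and turned the split of calls from 3555 higher and 2738 lower in WAT to 2865 higher and 3682 lower, and Bpgm was then at -1.80 (adjusted p = 0.00130, limma).

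Alas2 and Slc4a1 showed no such separation. Alas2 had 1050, 91.5, 204 and 276 in WAT antimiR-224 libraries and 928, 550, 1576 and 36.6 in BAT antimiR-224 libraries, a difference of -0.62 (SE 1.11, adjusted p = 0.67, limma). Slc4a1 differed by 0.35 (SE 1.28, adjusted p = 0.84, limma). With standard errors of this size, a difference near 2-fold in these genes could not be shown.

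On 1 scale over all 24 libraries, the order of the group means could be set out for the 3 genes recovered in all of them. Alas2 was highest in WAT scramblemiR, at 907 ± 589, followed by BAT antimiR-224 (770 ± 647), BAT antimiR-452 (569 ± 909), WAT antimiR-224 (415 ± 449), BAT scramblemiR (378 ± 503) and WAT antimiR-452 (131 ± 79.0), as normalized counts (SD, n = 4 each). Each gap between neighbours in that order was smaller than the larger of their SDs. Slc4a1 was likewise highest in WAT scramblemiR, at 89.98 ± 59.8, and lowest in WAT antimiR-452, at 10.1 ± 9.24, and again no neighbours differed by more than the larger SD. Bpgm had another order, with the 3 BAT groups between 960 and 1209 and the 3 WAT groups between 348 and 618. The step from WAT scramblemiR (618 ± 244) to BAT scramblemiR (960 ± 84.7) was the only one in the order of Bpgm larger than both SDs.

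Globin mRNA made up 0.0550% to 0.295% of reads in genes in WAT scramblemiR libraries and 0.00258% to 0.0929% in BAT scramblemiR libraries. Levels of different genes were compared as reads scaled by annotated exon length and library size (RPKM), in the scramblemiR libraries only. In WAT the order was Hbb-bs at 1206 ± 762, Hba-a1 at 505 ± 325, Hba-a2 at 421 ± 276, Hbb-bt at 245 ± 158, Alas2 at 22.3 ± 15.9, Bpgm at 10.1 ± 4.76 and Slc4a1 at 1.06 ± 0.69 RPKM (SD, n = 4). In BAT the order was the same, except that Bpgm, at 10.4 ± 0.53 RPKM, stood above Alas2, at 6.29 ± 8.59 RPKM. The SDs of most genes overlap with those of their neighbours. The order of Alas2 and Bpgm also turned between libraries of a group, with Alas2 at 5.38 and Bpgm at 5.71 RPKM in WAT scramblemiR library 3, and Alas2 at 18.5 and Bpgm at 10.1 RPKM in BAT scramblemiR library 3.

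Within a library the globin genes kept almost fixed proportions. Hba-a2 made up 39.4% to 41.0% of the reads of both α-globin genes in the 4 WAT scramblemiR libraries and 36.4% to 41.6% in the 4 BAT scramblemiR libraries. In BAT library 2, the source of the lowest value, the exact 95% binomial interval was 29.7% to 43.5%, since it rests on 198 reads. Hbb-bt made up 15.2% to 16% of the reads of both β-globin genes in WAT and 14.2% to 17.2% in BAT. Such intervals cover counting error only. The summed globin count, meanwhile, ranged 4.62-fold over the WAT scramblemiR libraries and 34.5-fold over the BAT scramblemiR libraries.

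The inhibitor groups had like proportions in the authors' deposited means. Hba-a2 was 41.4% of α-globin in WAT antimiR-452, 41.7% in WAT antimiR-224, 40.1% in BAT antimiR-452 and 40.8% in BAT antimiR-224. Hbb-bt was 15.1% to 16.1% of β-globin in these 4 groups. Per kilobase, α-globin stood at 0.589 to 0.693 times β-globin in the 8 scramblemiR libraries. These genes are near copies: 86.9% of all 50-base words of the longest Hba-a2 transcript also occur in Hba-a1 transcripts, and 58.3% of those of Hbb-bt occur in Hbb-bs transcripts. How the authors' counting split such reads is not given in the sources used here, so the proportions within a pair are uncertain.

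The other genes were less tightly bound to the globins. Reads of Alas2 per read of Hbb-bt ran from 0.123 in WAT antimiR-452 library 2 to 0.458 in BAT scramblemiR library 4, over 16 libraries. In WAT scramblemiR libraries the ratio was 0.306, 0.334, 0.246 and 0.296. Slc4a1 varied more against Alas2: of the reads of both genes, Slc4a1 took 20.3% in WAT scramblemiR library 4 (exact 95% interval 17.6% to 23.1%) and 2.56% in library 3 (1.11% to 4.97%). Those intervals lie far apart, so the difference was larger than counting error. Bpgm went from 0.587 reads per read of Alas2 in WAT scramblemiR library 2 to 56.4 in BAT scramblemiR library 1. Bpgm stayed at 386 or more normalized counts in every library, including those with the least Alas2.

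**Figure D3:**
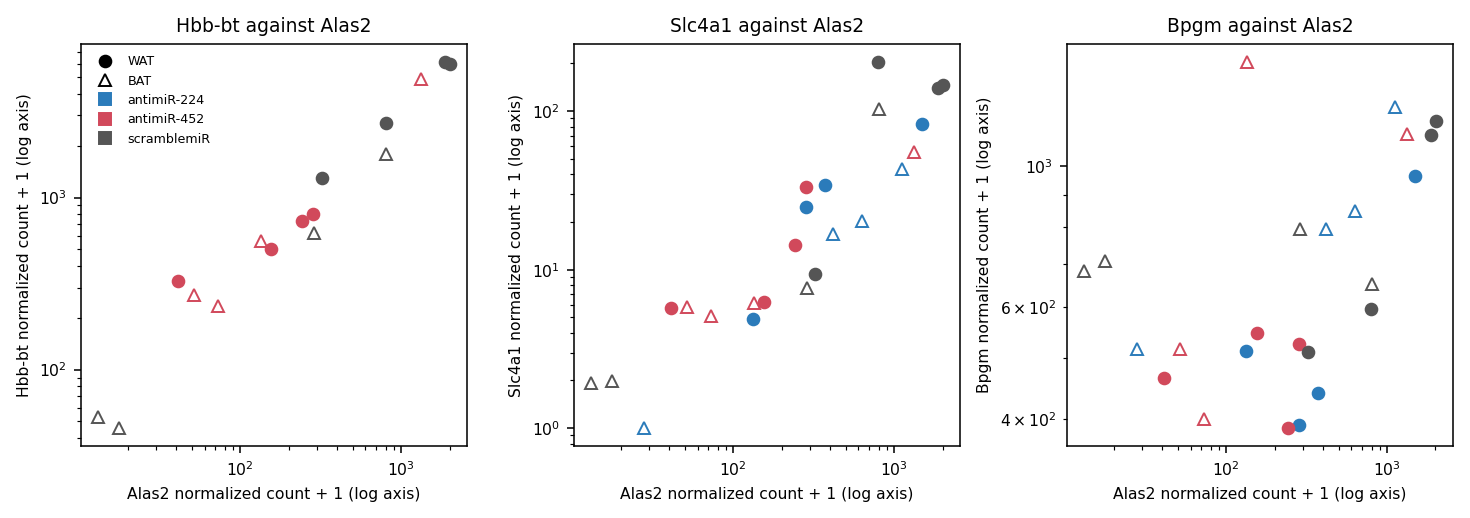
Normalized counts plus 1 of Hbb-bt, Slc4a1 and Bpgm (vertical axes) against Alas2 (horizontal axes), on log axes, 1 point per library with recovered reads (16 libraries for Hbb-bt, 24 for the others); filled circles are WAT and open triangles BAT. Hbb-bt and Slc4a1 are mostly higher where Alas2 is higher, whereas Bpgm stays above 380 at the lowest Alas2 values.

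Genes with the pattern most like the erythroid genes were ranked by Pearson correlation with the mean log2 value of Alas2, Bpgm and Slc4a1 over the 12 libraries of a tissue. The points share groups, cell makeup and scaling, so these values are descriptions. In WAT, the 8 nearest of 14564 genes included Xkr8 (r = 0.86), Pla2g15 (0.85), Topbp1 (0.85), Hapln3 (0.83), Nr5a1 (0.83) and Pole (0.83). Xkr8, which encodes a phospholipid scramblase, had 232, 151, 217 and 229.8 normalized counts in WAT antimiR-452 libraries, against 278, 388, 215 and 277 in WAT scramblemiR libraries, so its groups overlapped and its range was far narrower than that of Alas2. In BAT, Ppbp, a platelet chemokine (r = 0.90, Spearman's rho 0.88), and Ube2l6, a ubiquitin-conjugating enzyme (r = 0.89, Spearman's rho 0.87), were among the 8 nearest of 12702 genes.

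Among other genes of red cells, most had ratios near 0 in WAT with antimiR-452. For globins, haem synthesis, the red cell membrane, erythroid transcription and red cell enzymes, 62 symbols were listed. Tent5c and Fam46c among them name the same gene. Of the 62 symbols, 56 had a row in that deposited table and 45 had a mean of at least 10. Of these 45, 35 had a lower mean with antimiR-452 and 10 a higher one, with a median deposited log2 ratio of -0.13. Over 17791 genes with a mean of at least 10, 56.7% were lower and the median was -0.04. Since that contrast chose the erythroid genes, no test is given for it.

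The other genes of haem synthesis, enzymes and carriers most of which all cells use, had log2 ratios near 0. Of 11 genes, 6 had a lower and 5 a higher mean in WAT with antimiR-452, with a median deposited log2 ratio of -0.07. Fech, which inserts iron to form haem, had a deposited mean of 1927 with antimiR-452 and 2153 with scramblemiR. Cpox, the coproporphyrinogen oxidase, had 381 with antimiR-452 and 299.8 with scramblemiR. In the red cell membrane list, 7 of 9 genes were lower. Tmod1 was among those that were higher, with a deposited log2 ratio of 1.43. Tmod1 was at 562, 807 and 590 in antimiR-452 libraries 1 to 3, which had the high ciliated epithelium sums, and at 121 in library 4, against 158 to 244 in scramblemiR libraries. Kel, a blood group gene, was at 0 in 3 of 4 antimiR-452 libraries and at 4.43, 6.62, 0 and 22.0 in scramblemiR libraries.

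Of the erythroid transcription factors, Gata1 and Klf1 were near the limit of detection. Gata1 had 0.842, 1.90, 0 and 2.22 normalized counts in WAT antimiR-452 libraries, against 0, 48.3, 0 and 8.11 in WAT scramblemiR libraries, and Klf1 had at most 15.1 in any library. The value of 48.3 was in the library with the high sperm lineage sum, and the part of those cells in it was not tested. Epor, the erythropoietin receptor, which vascular and other cells also carry, had deposited means of 140 with antimiR-452 and 169 with scramblemiR. All 5 genes of that list with a mean of at least 10 were lower with antimiR-452, with a median log2 ratio of -0.17. The θ-globin genes Hbq1a and Hbq1b were at 0 in all 4 WAT antimiR-452 libraries and at 5.31 or less in WAT scramblemiR libraries. In the list of red cell enzymes and reticulocyte genes, 17 of 20 were lower, with a median of -0.13. Ube2l6 had a log2 ratio of -0.71, and Tspan33, a tetraspanin, had a ratio of the other sign, 2.14, with 19.98 normalized counts in library 4 and 297 to 530 in the other 3 antimiR-452 libraries, against 31.5 to 151 in scramblemiR libraries.

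In the other 3 comparisons the authors' deposited tables called 0 of the listed genes at an adjusted p of 0.05. At an unadjusted deposited p under 0.05, 1 of 56 was lower in WAT with antimiR-224 (Rhd, a blood group gene), 0 of 55 in either direction in BAT with antimiR-452, and 1 of 56 higher in BAT with antimiR-224 (Blvrb, a biliverdin reductase). Over all genes, 0.433% were lower at that level in WAT with antimiR-224 and 0.477% higher in BAT with antimiR-224. Rhd and Blvrb are named because these counts are of 1 gene each. Rhd was at 0 in all 4 WAT antimiR-224 libraries and at 4.43, 7.57, 0 and 26.7 normalized counts in WAT scramblemiR libraries. Blvrb had 776, 574, 1057 and 558 in BAT antimiR-224 libraries, against 312, 468, 571 and 448 in BAT scramblemiR libraries, so its groups overlapped. The median deposited log2 ratio was -0.97 for the 7 erythroid genes and -0.10 for the listed genes in WAT with antimiR-224. It was 1.24 for the 7 genes and 0.19 for the listed genes in BAT with antimiR-452, and 1.78 for the 7 genes and 0.16 for the listed genes in BAT with antimiR-224.

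**Figure D4:**
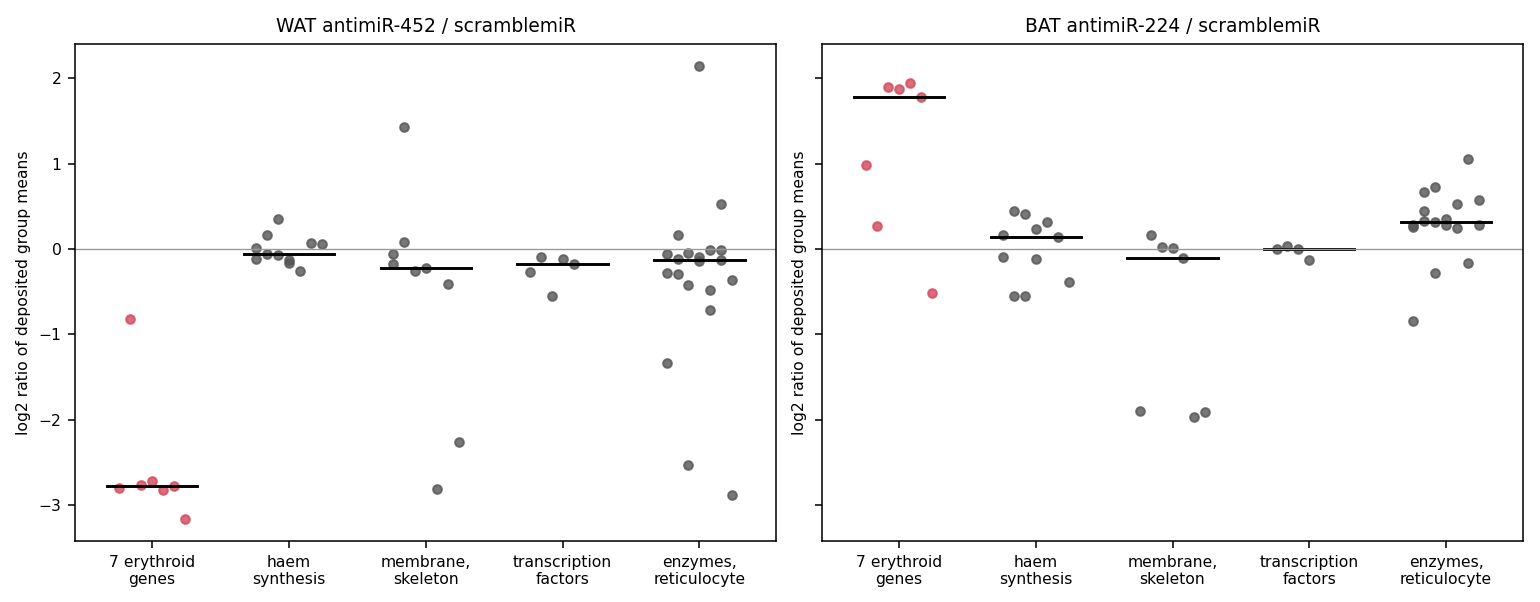
Log2 ratio of deposited group means for the 7 erythroid genes and for 4 lists of other erythroid-linked genes with a mean of at least 10, in WAT with antimiR-452 and BAT with antimiR-224, each against scramblemiR; points are genes and lines are list medians. The medians of the other lists lie between -0.22 and -0.07 in WAT with antimiR-452, against -2.77 for the 7 genes.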

How the data were processed

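The members and lists were chosen with earlier results of these data known. Per the labels' protocols, an oligo-dT step selected the RNA and the library kit kept strand. The submitters' processing notes name DESeq 1.10.1, R 2.15.3 and GRCm38.p4; no label or header names the aligner, counting tool or annotation. The 4 deposited tables hold, per the file headers, normalized count signals averaged over a group, the ratio of means as deposited, its log2 as deposited, and deposited p-values and adjusted p-values. The planned test had assumed values per library. Whole reads were therefore recovered from means printed to 15 digits: 100% of genes in scramblemiR groups, and 89.2% to 92.7% in inhibitor groups, so totals of inhibitor libraries are unknown. Recovery and tests were tested on simulated data. Recovered normalized counts with a mean of at least 10 were tested with limma 3.58.1 (R 4.3.3, log2(count + 1), trend, robust variance, Benjamini-Hochberg), per table or, between tissues, after joint median-of-ratios scaling. Single-library control values are on the scale of the antimiR-452 tables, which differs by at most 1.92% from that of the antimiR-224 tables. Of gene identifiers, 99.4% to 99.5% matched a symbol. Genes named from the lists are up to 3 of lowest deposited p in WAT antimiR-452 per list, and the 8 most like the members in WAT. Some genes these rules select are not reported here. Alternatives were pseudocounts, minimum means, variance settings, scalings and left-out libraries.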

Additional observations from a re-analysis of the deposited data

Results flagged for a closer look

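A test for a single distant library was applied to 29 groups of 4 normalized counts, and chance marks about 1 group in 20. In BAT antimiR-452, library 3 stood far above the other 3 libraries for 3 genes: Hbb-bt was at 4885, Alas2 at 1330 and Slc4a1 at 54.2 normalized counts. The gap to the next library, as a part of the whole range, was 0.931 for Hbb-bt, 0.935 for Alas2 and 0.980 for Slc4a1. In BAT scramblemiR, Slc4a1 was at 102 in library 3, against 0.930 to 6.65 in the other 3 libraries of the group. What sets these libraries apart was not tested.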

How the results depend on the processing

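Counts of called genes were 0 under every alternative in the 3 comparisons with scramblemiR, and between 5191 and 6765 when single libraries were left out between tissues, where Bpgm kept its call throughout (-1.81 to -1.33). The median log2 ratio of the 5 recovered genes in WAT with antimiR-452 was -2.77, and -3.05 to -2.25 as a difference of mean log2 values without single libraries. Leaving out single libraries turned the sign of uncalled values: Slc4a1 ranged from -0.075 to 1.85 in BAT with antimiR-224; Alas2 from -0.10 to 1.99, Bpgm from -0.21 to 0.41 and Slc4a1 from -0.38 to 1.71 in BAT with antimiR-452; Alas2 from -1.77 to 0.024 and Slc4a1 from -0.92 to 1.11 between tissues. Without both muscle-rich BAT scramblemiR libraries, an alternative added after seeing the data, as was scaling over all 24 libraries, Alas2 was -0.66 and Slc4a1 -1.34 with antimiR-224, and Hbb-bt -0.72, Alas2 -1.58 and Slc4a1 -1.48 with antimiR-452. By Spearman's rho, 5 of the 8 nearest genes in WAT and 3 of the 8 in BAT were shared with the list by Pearson's r. No paired analysis was possible because recovered reads could not be tied to the replicate numbers of the sample titles. The globin genes with most reads could not be recovered in inhibitor groups, which limits the tests to 3 or 4 of the 7 erythroid genes.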
